A study of Homo sapiens with 6 samples.

Results

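The genes described here encode the subunits of the 3 nuclear RNA polymerases, measured by RNA sequencing in HCCLM3 cells treated with CC-885 or with its solvent DMSO. They were taken as every row of the gene count table whose Ensembl identifier carries a protein-coding symbol that starts with POLR1, POLR2 or POLR3 and goes on with a letter. The rule found 33 of 20263 rows. Of these, 6 belong to RNA polymerase I (Pol I) alone, 10 to RNA polymerase II (Pol II) and 10 to RNA polymerase III (Pol III), 5 are in all 3 enzymes, and 2 are in Pol I and Pol III. HCCLM3 is an established human hepatocellular carcinoma line. CC-885 is a small molecule that binds cereblon, through which a CUL4 ubiquitin ligase recognises its substrates, and brings it new ones such as the translation termination factor GSPT1. Each group held 3 libraries, and RNA was taken after 24 h. The dose is not stated in the labels. Nothing in them ties the replicates to separate cultures, so p-values cover the spread among these libraries, which may be technical only.

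Pol I copies the large ribosomal RNA precursor in the nucleolus, Pol II copies protein-coding genes, and Pol III copies transfer RNAs, 5S ribosomal RNA and other short RNAs. Each enzyme is built around a pair of large catalytic subunits, an alpha-like assembly platform and a set of small subunits that all 3 enzymes share. Around this core sit a stalk, which holds the emerging RNA, a zinc-ribbon subunit that helps to cut the transcript, and in Pol I and Pol III built-in counterparts of the Pol II factors TFIIF and TFIIE. A complete enzyme needs all of its subunits, and their mRNAs are made by Pol II from separate genes.

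Total counts per library ran from 30432509 to 39809131. Levels are given as CPM (the count over the library total, scaled up) after TMM scaling, and every gene of the set passed the filter on low counts. A gene was called higher or lower where the adjusted p of the edgeR quasi-likelihood test was below 0.05, and log2 fold changes (CC-885 minus DMSO) are followed by their standard error. In bulk RNA a lower level can mean less RNA per cell or fewer cells that make it. CPM are relative to the other RNAs of a library, so it can also mean that other RNAs rose. These readings cannot be told apart. Of the hepatic markers, ALB, APOB, TTR, AFP and GPC3 had 0 counts in all 6 libraries and HNF4A had 0.214 CPM under CC-885 and 1.25 CPM under DMSO. The epithelial keratins KRT8 and KRT18 were at 890 and 657 CPM under CC-885 and at 1252 and 758 CPM under DMSO. Other epithelial markers were low: over all libraries EPCAM ran from 2.73 to 4.97 CPM and CDH1 from 3.46 to 5.86 CPM. KRT19 had 2 counts in DMSO replicate 1 and 0 elsewhere. PTPRC, the leukocyte marker, and LUM, a fibroblast marker, had 0 counts. COL1A1 was at 155 CPM under CC-885 and 104 CPM under DMSO, while COL1A2 had 2 counts in CC-885 replicate 3 and 0 elsewhere. VWF was called higher, at 1.88 CPM under CC-885 and 0.929 CPM under DMSO (adjusted p = 0.0232).

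The subunit genes did not move as a block. With CC-885, 14 of the 33 (42.4%) were called, against 52.6% of all 13444 genes tested. The called genes split into 5 higher (15.2%, against 25.8% of all genes tested) and 9 lower (27.3%, against 26.8%). The median log2 fold change of the set was -0.00, that of all genes tested was -0.04, and single subunits ran from -1.61 to 1.41. The CC-885 and DMSO libraries did not overlap for 19 of the 33 genes (57.6%, against 61.1% of all genes tested), with CC-885 above for 9 (27.3%, against 29.9%) and below for 10 (30.3%, against 31.2%). Higher subunits were POLR3C, POLR3F, POLR1C, POLR1E and POLR1F. Lower subunits included POLR1H, POLR2G, POLR3GL, POLR2K, POLR2L, POLR2B, POLR3B and POLR1D. Only POLR3C, POLR1H and POLR2G were called with a change of at least 2-fold. In the reported fit 0 of the 15 genes named POLR2 were called higher, against 25.8% of all genes tested. The share was 8.37% for transcripts under 1000 bases, a class that holds POLR2F, POLR2G, POLR2H, POLR2I, POLR2J, POLR2J3, POLR2K and POLR2L. The count of 0 depended on the setting. When GC and length offsets entered the fit, POLR2C (0.31), POLR2F (0.34) and POLR2J (0.70) were called higher. Without CC-885 replicate 3, POLR2M was called higher (0.43).

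**Figure D1:**
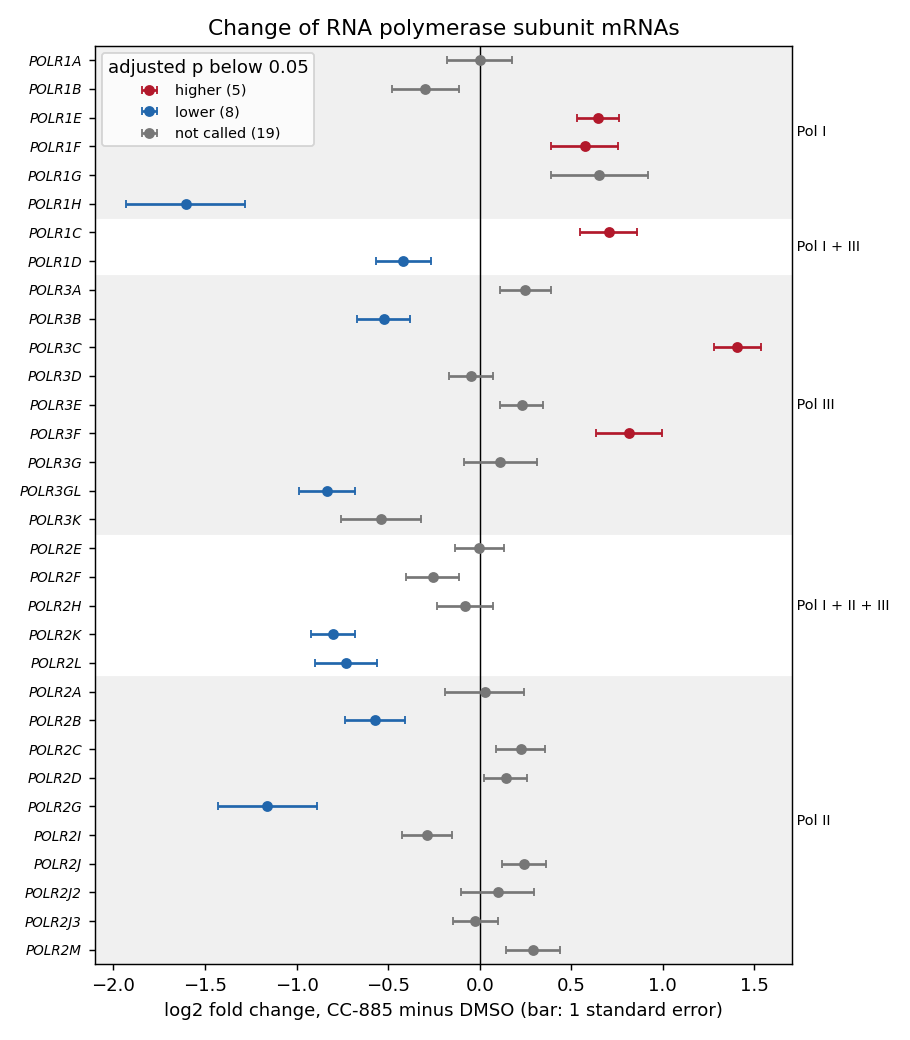
Log2 fold change (x axis, CC-885 minus DMSO) of 32 subunit genes (y axis), grouped by the polymerase they belong to, with bars of 1 standard error and colours for higher (5), lower (8) and not called (19). POLR3C lies farthest to the right at 1.41 and POLR1H farthest to the left at -1.61, and higher and lower subunits stand beside each other within Pol I and Pol III.

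Levels were also summed over the subunit genes of each enzyme. The 6 Pol I genes summed to 332 ± 10.3 CPM under CC-885 and 322 ± 9.49 CPM under DMSO (mean ± SD, n = 3), and the 10 Pol II genes to 811 ± 24.3 and 847 ± 32.1 CPM, both with overlapping libraries. The 10 Pol III genes summed to between 449 and 472 CPM under CC-885 and between 414 and 445 CPM under DMSO, so the groups did not overlap. On average POLR3C made up 108 of 459 CPM under CC-885 and 40.6 of 428 CPM under DMSO. Its gain was larger than that of the sum, so the other Pol III genes together were lower on average under CC-885. The 5 subunits common to all enzymes summed to between 241 and 295 CPM under CC-885 and between 315 and 381 CPM under DMSO. The groups did not overlap here either. Each of the 5 had a negative log2 fold change, though that of POLR2E was only -0.0015. With GC and length offsets POLR2E (0.13), POLR2F (0.34) and POLR2H (0.19) were positive, while POLR2K (-0.56) and POLR2L (-0.33) stayed negative. These sums were compared as ranges, without a test.

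The stretches upstream of 4 of the genes are printed because these genes carry the contrasts described next: POLR3C and POLR3GL within Pol III, POLR1H within Pol I, and POLR1C, a subunit of both. RefSeq (build GRCh38.p14) gave 30 starts for 24 of the 33 genes, 6 of which have more than 1, and the 250 bases before each start were searched on both strands for 10 short motifs. POLR3C has more than 1 start, and the stretch before its upstream one is shown. Each line gives the 150 bases nearest to the start on the gene's own strand, from 5′ to 3′, with motif matches in capitals. POLR3C lies at chr1:145824050-145824199, POLR1C at chr6:43516939-43517088, POLR1H at chr6:30061115-30061264 and POLR3GL at chr1:145964540-145964689, all on the plus strand.
POLR3C: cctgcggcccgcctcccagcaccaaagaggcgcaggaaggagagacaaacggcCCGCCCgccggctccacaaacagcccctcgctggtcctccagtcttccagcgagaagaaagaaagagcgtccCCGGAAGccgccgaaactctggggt
POLR1C: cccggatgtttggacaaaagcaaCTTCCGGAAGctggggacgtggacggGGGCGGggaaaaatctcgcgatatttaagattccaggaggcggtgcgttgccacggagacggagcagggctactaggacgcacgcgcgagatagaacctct
POLR1H: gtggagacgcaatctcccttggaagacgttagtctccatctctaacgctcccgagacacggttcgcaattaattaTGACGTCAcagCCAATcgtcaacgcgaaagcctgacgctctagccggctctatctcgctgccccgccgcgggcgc
POLR3GL: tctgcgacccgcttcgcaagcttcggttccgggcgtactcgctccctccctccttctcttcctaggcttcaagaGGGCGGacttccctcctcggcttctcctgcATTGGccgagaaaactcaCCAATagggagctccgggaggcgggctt
The capitals mark an ETS site (CCGGAAG or its reverse complement) and a GC box (GGGCGG) or its reverse complement in POLR3C and POLR1C, where the ETS matches of POLR1C overlap each other on opposite strands. In POLR1H they mark a cyclic AMP response element (TGACGTCA) and a CCAAT box (CCAAT), and in POLR3GL a GC box and CCAAT boxes on both strands.

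A gene was counted for a motif if any of its windows held it, and the share over all 27305 genes of the table was counted in the same way. These were not limited to the 13444 genes tested here, whereas every subunit gene was tested. The shares therefore come from unlike sets, and the share over expressed genes alone was not computed. Over the 24 genes with a window, an ETS site was present in 7 (29.2%, against 10.2% of all genes) and an NRF1 site (GCGCA, any base, then GCGC) in 7 (29.2%, against 6.2%). A GC box was present in 16 (66.7%, against 46.2%), an E-box (CACGTG) in 3 (12.5%, against 7.73%) and a TATA box (TATAAA) in 1 (4.17%, against 13.0%). The palindromic response element was found in POLR1H only of the 24 (4.17%, against 2.03%). A CCAAT box was present in 6 of the 24 (25.0%, against 37.0%): in POLR1D, POLR1H, POLR3B and POLR3GL of the 6 lower genes with a window, in POLR3C of the 4 higher ones (before the start that is not shown), and in POLR3K of the 14 not called. The ATF4 composite element (TGATGNAA, 3.89% of all genes), the AP-1 site (TGANTCA, 8.06%) and the YY1 site (AAGATGGC, 1.64%) were in none of the windows of the 24 genes. These matches describe letters near the start and were set against the calls as a description.

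Within Pol I, the peripheral subunits POLR1E, POLR1F and POLR1H changed, and the catalytic pair did not pass the test. POLR1A, the largest catalytic subunit, was measured at 124, 126 and 115 CPM under CC-885 and at 125, 87.8 and 151 CPM under DMSO, so the DMSO libraries spanned the CC-885 ones and the log2 fold change was 0.00 ± 0.18 (adjusted p = 0.999). POLR1B, the second catalytic subunit, had 55.7, 54.5 and 73.2 CPM under CC-885 and 84.7, 84.4 and 56.2 CPM under DMSO, which overlap (-0.30 ± 0.18, adjusted p = 0.191). DMSO replicate 3 was the low one for POLR1B, and without it the adjusted p was 0.0149 at a log2 fold change of -0.47.

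POLR1E and POLR1G form the TFIIF-like pair of Pol I. POLR1E had 95.9, 98.2 and 92.6 CPM under CC-885 and 62.7, 59.9 and 60.7 CPM under DMSO. Replicates were close and the groups far apart, and the gene was called higher by 1.56-fold (0.65 ± 0.11, adjusted p = 0.000715). POLR1G had a log2 fold change of the same size, 0.65 ± 0.26, but was not called (adjusted p = 0.0667). CC-885 replicate 1 at 16.02 CPM lay below DMSO replicate 3 at 19.7 CPM. Its other CC-885 libraries were at 27.2 and 27.0 CPM and its other DMSO libraries at 10.9 and 14.2 CPM. Leaving out CC-885 replicate 1 made POLR1G a called gene (0.87, adjusted p = 0.00962), as did leaving out DMSO replicate 3 (0.90, adjusted p = 0.00872).

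POLR1F, a stalk subunit that contacts the initiation factor RRN3, had 16.3, 19.1 and 20.7 CPM under CC-885 and 10.8, 15.96 and 10.9 CPM under DMSO. The lowest CC-885 library lay just above the highest DMSO library, and the gene was called higher by 1.49-fold (0.57 ± 0.18, adjusted p = 0.0205). The call of POLR1F ended when DMSO replicate 1 (adjusted p = 0.0882) or either of CC-885 replicates 2 and 3 was left out (adjusted p = 0.05 and 0.0774).

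POLR1H, the zinc-ribbon subunit for transcript cleavage, moved against these. It had 12.8, 13.0 and 10.5 CPM under CC-885 and 38.4, 51.8 and 20.3 CPM under DMSO. The DMSO libraries differed 2.55-fold among themselves, yet the lowest was above every CC-885 library, and the gene was called lower by 3.04-fold (-1.61 ± 0.32, adjusted p = 0.00525). Leaving out a library moved the log2 fold change between -1.90 and -1.27, and the call held each time.

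POLR1C and POLR1D form the alpha-like heterodimer on which both Pol I and Pol III are assembled, and their mRNAs changed in opposite directions. POLR1C had 61.0, 78.5 and 66.1 CPM under CC-885 and 40.4, 50.1 and 35.7 CPM under DMSO, without overlap, and was called higher by 1.63-fold (0.70 ± 0.16, adjusted p = 0.00281). POLR1D had 65.9, 71.2 and 63.1 CPM under CC-885 and 89.6, 105 and 72.5 CPM under DMSO, and was called lower by 1.33-fold (-0.42 ± 0.15, adjusted p = 0.0331). The closest libraries of POLR1D were CC-885 replicate 2 and DMSO replicate 3, which were nearly level. The call of POLR1D was lost when any library but DMSO replicate 3 was left out (adjusted p from 0.059 to 0.114, and a log2 fold change of -0.27 without DMSO replicate 2) and when GC and length offsets entered the fit (-0.11, adjusted p = 0.437).

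Pol III held both the largest rise and a group of falls. POLR3C, POLR3F and POLR3G or POLR3GL make up the TFIIE-like trimer that opens the promoter. POLR3C was measured at 96.8, 113 and 112 CPM under CC-885 and at 39.1, 38.4 and 44.2 CPM under DMSO. Every CC-885 library was more than 2-fold above every DMSO library, and POLR3C was called higher by 2.65-fold (1.41 ± 0.13, adjusted p = 8.52e-06). POLR3F had 15.7, 16.1 and 17.6 CPM under CC-885 and 7.88, 12.0 and 8.13 CPM under DMSO, and was called higher by 1.76-fold (0.82 ± 0.18, adjusted p = 0.003).

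The place beside POLR3C and POLR3F is taken by POLR3G, the form known from stem and tumour cells, or POLR3GL, the widespread form. POLR3G had 4.86, 4.39 and 5.96 CPM under CC-885 and 3.89, 4.69 and 5.49 CPM under DMSO, which overlap (0.11 ± 0.20, adjusted p = 0.651). POLR3GL had 11.2, 11.5 and 14.6 CPM under CC-885 and 21.9, 24.1 and 20.7 CPM under DMSO, and was called lower by 1.78-fold (-0.84 ± 0.15, adjusted p = 0.000954). POLR3GL was therefore the more abundant form by count in every library.

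The count ratio of POLR3G to POLR3GL was 0.433, 0.382 and 0.407 under CC-885 and 0.178, 0.195 and 0.266 under DMSO. All 3 CC-885 libraries were above all 3 DMSO libraries, and the mean log2 ratio was -1.30 ± 0.09 under CC-885 and -2.26 ± 0.30 under DMSO (SD, n = 3). The difference of 0.96 gave an exact two-sided permutation p of 0.1, the smallest that 3 libraries against 3 allow. The difference ran from 0.84 to 1.13 when each library was left out in turn. This permutation p was not adjusted for other ratios. The transcripts of POLR3G and POLR3GL have 3285 and 1165 bases. With GC and length offsets POLR3G was at -0.05 and POLR3GL at -0.65, and the part of length in their ratio was not tested.

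Of the catalytic pair of Pol III, only POLR3B passed the test. POLR3A, the largest subunit, had 76.2, 73.2 and 69.2 CPM under CC-885 and 67.7, 50.7 and 65.5 CPM under DMSO, with CC-885 above but not called (0.25 ± 0.14, adjusted p = 0.148). POLR3B had 18.4, 19.3 and 23.0 CPM under CC-885 and 26.2, 30.7 and 30.4 CPM under DMSO, and was called lower by 1.44-fold (-0.52 ± 0.14, adjusted p = 0.00938). The TFIIF-like subunits differed little: POLR3D had a log2 fold change of -0.05 ± 0.12 (adjusted p = 0.75), with 66.6 to 73.9 CPM in the CC-885 libraries and 68.1 to 77.8 CPM in the DMSO libraries. POLR3E had 74.9 to 79.7 CPM under CC-885 and 60.1 to 68.3 CPM under DMSO, without overlap but not called (0.23 ± 0.12, adjusted p = 0.123).

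CRCP is a subunit of Pol III that does not carry a POLR symbol. CRCP had 25.0, 30.9 and 28.01 CPM under CC-885 and 10.0, 8.77 and 9.91 CPM under DMSO, without overlap (1.55 ± 0.15, adjusted p = 1.04e-05). POLR3K, the zinc-ribbon subunit, had 47.7, 49.0 and 37.2 CPM under CC-885 and 68.6, 82.2 and 43.7 CPM under DMSO, which overlap (-0.54 ± 0.22, adjusted p = 0.0656). DMSO replicate 3 was again the low DMSO library, and without it POLR3K was called lower (-0.76, adjusted p = 0.000366).

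The subunits common to all 3 enzymes fell or did not pass the test. POLR2K, a small zinc-binding subunit, had 30.04, 30.1 and 30.2 CPM under CC-885 and 49.0, 56.4 and 52.0 CPM under DMSO. The CC-885 libraries were almost identical, and POLR2K was called lower by 1.74-fold (-0.80 ± 0.12, adjusted p = 0.000247). POLR2L, also a small zinc-binding subunit, had 71.6, 76.3 and 51.3 CPM under CC-885 and 119, 120 and 91.8 CPM under DMSO, and was called lower by 1.66-fold (-0.73 ± 0.17, adjusted p = 0.00383). With GC and length offsets POLR2L was at -0.33 (adjusted p = 0.034).

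The other shared subunits, which help to hold the enzyme together, were not called. POLR2E had 62.8 to 80.3 CPM under CC-885 and 68.9 to 78.4 CPM under DMSO (-0.00 ± 0.13, adjusted p = 0.994), and POLR2H 67.2 to 76.7 and 65.9 to 93.7 CPM (-0.08 ± 0.15, adjusted p = 0.679). POLR2F had 29.2 to 34.3 CPM under CC-885 and 32.2 to 42.6 CPM under DMSO (-0.26 ± 0.15, adjusted p = 0.159). POLR2F turned with the setting: it was called lower without DMSO replicate 3 (-0.38, adjusted p = 0.0409) and higher with GC and length offsets (0.34, adjusted p = 0.00673).

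**Figure D2:**
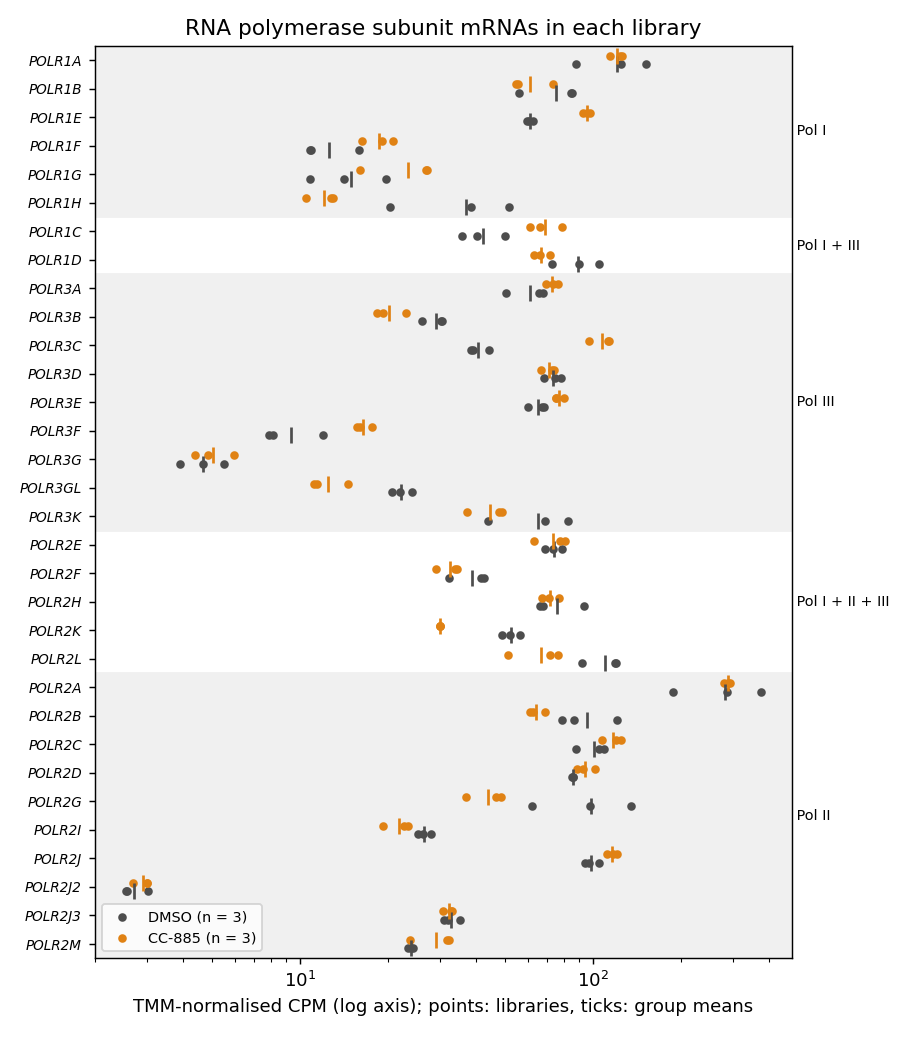
Level of 32 subunit genes in each library (CPM, log axis), with 3 CC-885 and 3 DMSO libraries per gene, arranged by polymerase. The libraries of POLR3C separate with CC-885 above (96.8 to 113 against 38.4 to 44.2 CPM), those of POLR2G with CC-885 below (36.8 to 48.7 against 62.0 to 135 CPM), and the DMSO libraries of POLR2A are spread on both sides of the CC-885 ones.

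Pol II changed in its second catalytic subunit and in its stalk. POLR2A, which carries the C-terminal repeat domain, had 281, 295 and 289 CPM under CC-885 and 288, 188 and 374 CPM under DMSO. The DMSO libraries lay on both sides of the CC-885 ones and POLR2A was not called (0.03 ± 0.21, adjusted p = 0.927). POLR2B had 62.6, 61.1 and 68.5 CPM under CC-885 and 86.6, 121 and 78.4 CPM under DMSO, and was called lower by 1.49-fold (-0.57 ± 0.16, adjusted p = 0.0115). DMSO replicate 2 was the high one for POLR2B and the low one for POLR2A, and without it the log2 fold change of POLR2B was -0.35 (adjusted p = 0.0218).

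POLR2D and POLR2G form the stalk of Pol II. POLR2D had 102, 92.6 and 88.4 CPM under CC-885 and 85.6, 84.8 and 85.6 CPM under DMSO, with CC-885 above but not called (0.14 ± 0.12, adjusted p = 0.326). POLR2G had 46.6, 48.7 and 36.8 CPM under CC-885 and 98.2, 135 and 62.0 CPM under DMSO. It fell by 2.23-fold (-1.16 ± 0.27, adjusted p = 0.00858), with no overlap although the DMSO libraries themselves spanned a more than 2-fold range. Its log2 fold change ran from -1.41 to -0.86 with each library left out, and it stayed called.

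The alpha-like pair of Pol II, POLR2C and POLR2J, was not called. POLR2C had 108 to 125 CPM under CC-885 and 87.9 to 109 CPM under DMSO (0.22 ± 0.13, adjusted p = 0.175). POLR2J had 112 to 121 CPM under CC-885 and 93.8 to 105 CPM under DMSO, without overlap (0.24 ± 0.12, adjusted p = 0.107). Its near-identical copies POLR2J2 (2.56 to 3.02 CPM over all libraries, 0.10 ± 0.20, adjusted p = 0.696) and POLR2J3 (31.0 to 35.3 CPM, -0.02 ± 0.12, adjusted p = 0.889) share sequence with it, so the counts of all 3 are uncertain. With GC and length offsets POLR2J (0.70, adjusted p = 0.00224) and POLR2C (0.31, adjusted p = 0.0329) were called higher.

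POLR2I, the zinc-ribbon subunit of Pol II, had 22.6, 23.4 and 19.3 CPM under CC-885 and 26.3, 28.1 and 25.3 CPM under DMSO. Every CC-885 library was below every DMSO library, but the gene was not called (-0.29 ± 0.14, adjusted p = 0.0948). POLR2M, which associates with paused Pol II, had 31.7, 32.3 and 23.8 CPM under CC-885 and 24.4, 23.5 and 23.9 CPM under DMSO (0.29 ± 0.15, adjusted p = 0.115). CC-885 replicate 3 was level with the DMSO libraries, and without it POLR2M was called higher (0.43, adjusted p = 0.0316). Across the enzymes the zinc-ribbon subunits POLR1H, POLR2I and POLR3K all had negative log2 fold changes, of which only that of POLR1H was called. Their transcripts have 864, 913 and 1392 bases. With GC and length offsets POLR1H was at -1.26, POLR2I at 0.11 and POLR3K at -0.44.

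Because partner subunits enter the enzyme together, the ratio of their counts within a library was compared for 9 pairs that share a role, chosen after the values were seen. The ratio does not depend on library size. Groups did not overlap for 5 of the 9 pairs. The share over other gene pairs was not computed, and of all single genes tested 61.1% had groups without overlap. The POLR1C to POLR1D ratio was 0.925, 1.10 and 1.05 under CC-885 and 0.451, 0.477 and 0.492 under DMSO, a 2.16-fold higher ratio with CC-885. The stalk ratio of POLR2D to POLR2G was 2.18, 1.90 and 2.40 under CC-885 and 0.871, 0.629 and 1.38 under DMSO, 2.36-fold higher. Their transcripts have 5042 and 827 bases, and with GC and length offsets POLR2D was at -0.0049 and POLR2G at -0.84. The part of length in this ratio was not tested.

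Of the catalytic pairs, only that of Pol III separated the groups. The POLR3B to POLR3A ratio was 0.241, 0.263 and 0.333 under CC-885 and 0.388, 0.606 and 0.464 under DMSO (0.58 times). The POLR2B to POLR2A ratio (0.65 times) and the POLR1B to POLR1A ratio (0.80 times) overlapped between the groups. The ratio of POLR3C to POLR3F was 1.48-fold higher and that of POLR3E to POLR3D 1.21-fold higher, both without overlap. POLR2C to POLR2J (0.99 times) and POLR1E to POLR1G (0.99 times) overlapped. Each pair without overlap had an exact two-sided permutation p of 0.1, the smallest possible here, and 0.18 after Benjamini-Hochberg adjustment over the 9 pairs.

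**Figure D3:**
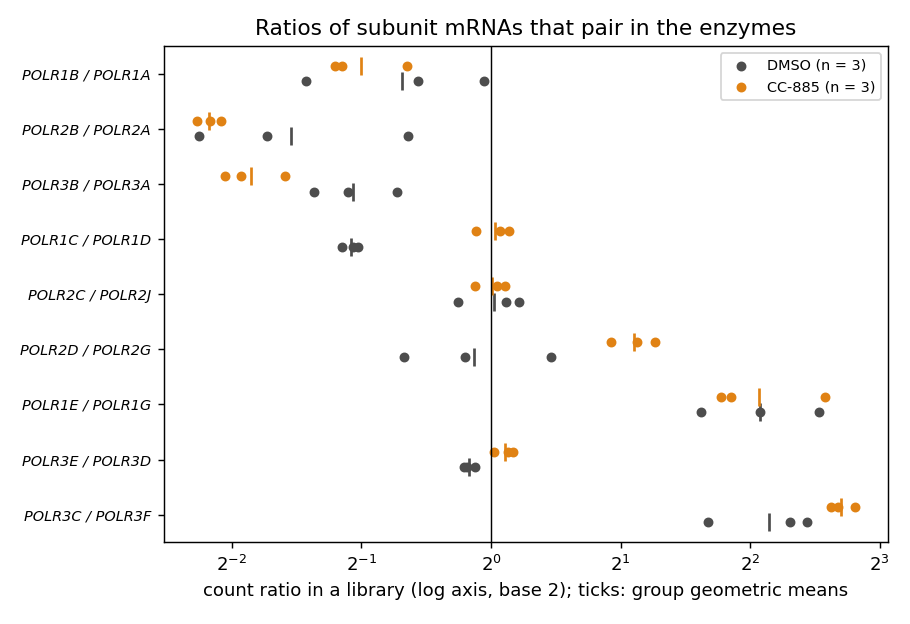
Count ratio within each library (log axis) for 9 pairs of subunits of like role, with 3 CC-885 and 3 DMSO libraries per pair. The ratios of POLR1C to POLR1D and POLR2D to POLR2G lie higher in every CC-885 library, that of POLR3B to POLR3A lies lower, and those of POLR2C to POLR2J and POLR1E to POLR1G mix.

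Transcript length moved with the change over all genes tested. Genes with a transcript under 1000 bases had a median log2 fold change of -0.42 (872 genes, 8.37% higher and 43.5% lower), and those of 4000 bases or more one of 0.14 (4618 genes, 34.1% higher and 20.6% lower). Of the 9 subunit genes under 1000 bases 4 were called lower (POLR1H, POLR2G, POLR2K and POLR2L) and 0 higher, with a median of -0.29. Of the 10 subunit genes of 4000 bases or more 3 were called lower, among them POLR2B and POLR3B, and 0 higher, with a median of -0.02. The 5 higher subunits all had transcripts of at least 1000 and under 4000 bases.

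The Spearman correlation of log2 fold change with length was 0.28 over the 33 subunit genes and 0.20 over 13432 genes. With GC content it was -0.12 and -0.19. These values are a description across genes, which are not replicates. DMSO libraries also differed among themselves along length: genes under 1000 bases had a median deviation of 0.35 (log2) in DMSO replicate 2 and 0.02 in DMSO replicate 3. The log2 difference between these libraries (replicate 3 minus replicate 2) correlated with length at 0.42 over the subunit genes and 0.24 over all 13432. The part of length and GC content in the results was not tested. With GC and length offsets all called subunits but POLR1D remained called, among them POLR1H at -1.26 (adjusted p = 0.00617), POLR2G at -0.84 (adjusted p = 0.0109) and POLR3C at 1.48 (adjusted p = 2.42e-05).

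**Figure D4:**
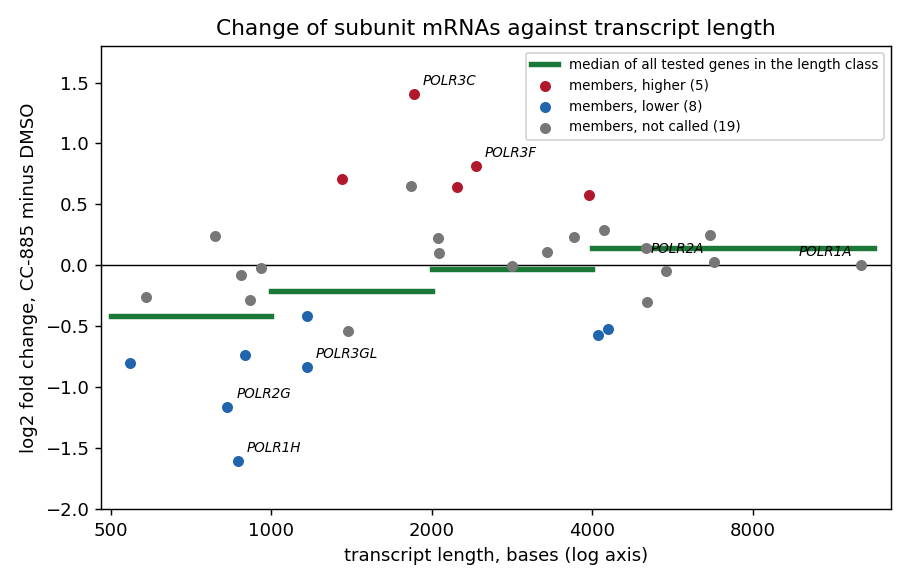
Log2 fold change (y axis) of 32 subunit genes against transcript length in bases (x axis, log axis), coloured by call, with green bars for the median of all tested genes in 4 length classes (-0.42, -0.21, -0.03 and 0.14 from short to long). POLR1H and POLR2G lie below the bar of the shortest class, and POLR3C lies above the bar of its class.

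Some subunit genes share their position with another gene, and whether the counting used strand is not stated in the labels. In GENCODE 29, 14 of the 33 overlap a protein-coding gene on the opposite strand. Among the called ones these include POLR1C (LRRC73, XPO5 and YIPF3), POLR2B (IGFBP7 and NOA1), POLR2L (CD151) and POLR3F (DZANK1), whose counts are less certain. On the same strand, POLR2J2, POLR2J3, POLR2M and POLR3GL overlap one, and of these only POLR3GL was called. POLR3C, POLR1F, POLR2G, POLR2K, POLR1D and POLR1H overlap no protein-coding gene there. Of the partner genes named here, CRCP and ELL3 overlap a protein-coding gene on the same strand, and CCNH, ELL3, GTF3A, PDRG1, PFDN6, PIH1D1, RRN3, SLC7A6OS and TAF1D one on the opposite strand.

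The initiation factors of Pol I were higher or not called. Of 11 genes of Pol I initiation, termination and regulation 5 were called higher and 0 lower (median log2 fold change 0.19). Over all genes tested, 25.8% were called higher and 26.8% lower. RRN3, which tethers Pol I to its promoter factors through POLR1F, was at 131 ± 8.60 CPM under CC-885 and 56.6 ± 13.0 CPM under DMSO (1.21 ± 0.16, adjusted p = 0.000118). TAF1A and TAF1D, members of the promoter complex SL1, rose from 9.38 to 22.0 CPM (1.23 ± 0.17, adjusted p = 0.000119) and from 102 to 229 CPM (1.16 ± 0.15, adjusted p = 7.31e-05).

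Among 18 general transcription factors of Pol II, which carry the enzyme to its promoters, 10 were called higher and 1 lower (median 0.41). The shares of all genes tested were 25.8% higher and 26.8% lower. The kinase module of TFIIH, which phosphorylates POLR2A, rose in all its members: CDK7 was at 77.7 ± 4.93 CPM under CC-885 and 33.4 ± 2.98 CPM under DMSO (1.22 ± 0.13, adjusted p = 2.03e-05), and CCNH at 40.045 and 19.4 CPM (1.05 ± 0.14, adjusted p = 8.84e-05). MNAT1, the third member, named after its values were seen, was at 20.5 and 13.1 CPM (0.65 ± 0.15, adjusted p = 0.00327). GTF2A1, a subunit of TFIIA, rose from 74.2 to 121 CPM (0.70 ± 0.12, adjusted p = 0.000609). GTF2H5, the smallest TFIIH subunit, was the one that fell, from 11.0 ± 1.71 to 3.54 ± 0.07 CPM (-1.64 ± 0.17, adjusted p = 2.04e-05).

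Of 34 genes of Pol II pausing, elongation and C-terminal domain kinases or phosphatases, 15 were called higher and 6 lower (median 0.37). The shares of all genes tested were 25.8% and 26.8%. ELL2, a subunit of the super elongation complex, rose from 88.8 ± 7.46 to 326 ± 40.8 CPM (1.87 ± 0.14, adjusted p = 2.94e-06). Its relative ELL rose from 25.0 to 62.8 CPM (1.33, adjusted p = 2.02e-05) and the scaffold AFF4 from 124 to 252 CPM (1.02, adjusted p = 7.82e-05). HEXIM1 and HEXIM2, which hold the elongation kinase P-TEFb inactive, fell from 263 to 155 CPM (-0.77, adjusted p = 0.000806) and from 12.0 to 6.34 CPM (-0.92, adjusted p = 0.000869). ELL3 fell from 4.40 to 1.82 CPM (-1.28, adjusted p = 0.000953).

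Of 19 Pol III initiation factors, snRNA activating complex subunits and MAF1, 6 were called higher and 2 lower (median 0.27). This list holds CRCP, described above. Over all genes tested the shares were 25.8% higher and 26.8% lower. SNAPC1, a subunit of the complex that starts snRNA genes, rose from 7.35 ± 1.01 to 33.3 ± 4.25 CPM (2.18 ± 0.16, adjusted p = 2.47e-06), and BDP1 of TFIIIB from 36.5 to 75.2 CPM (1.04, adjusted p = 0.000183). GTF3A, the 5S RNA gene factor, fell from 77.3 to 52.4 CPM (-0.56, adjusted p = 0.00263) and SNAPC2 from 12.7 to 7.82 CPM (-0.69, adjusted p = 0.00461). The call of SNAPC2 was lost with GC and length offsets (adjusted p = 0.0946).

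Of 19 genes for polymerase assembly and nuclear import 7 were called higher and 3 lower (median 0.24), against 25.8% and 26.8% of all genes tested. SLC7A6OS, the human counterpart of the import factor Iwr1, rose from 29.8 to 68.9 CPM (1.21, adjusted p = 2.63e-05). Within the prefoldin-like R2TP assembly machinery members went both ways. PIH1D1 rose from 32.3 to 59.7 CPM (0.88, adjusted p = 0.000503) and PDRG1 from 29.3 to 81.4 CPM (1.48, adjusted p = 0.000754), while PFDN6 fell from 97.5 to 61.3 CPM (-0.67, adjusted p = 0.00155), UXT from 72.0 to 41.0 CPM (-0.81, adjusted p = 0.00909) and URI1 from 59.6 to 43.9 CPM (-0.44, adjusted p = 0.00983). The calls of UXT with GC and length offsets (adjusted p = 0.0596) and of URI1 without CC-885 replicate 2 (adjusted p = 0.0518) were lost.

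The separate mitochondrial polymerase was the last list, with 3 of 6 genes called higher and 0 lower (median 0.31). POLRMT, the enzyme, rose from 108 to 148 CPM (0.46, adjusted p = 0.0124), TFAM, its promoter factor, from 67.9 to 91.8 CPM (0.44, adjusted p = 0.019) and MTERF1, a termination factor, from 2.73 to 4.84 CPM (0.82, adjusted p = 0.0398). Each of these calls was lost in at least 1 alternative. The call of POLRMT ended without CC-885 replicate 1 (adjusted p = 0.0638), that of TFAM in 4 alternatives (adjusted p from 0.0522 to 0.0808), and that of MTERF1 in 9 of 14 alternatives (adjusted p up to 0.194). The counts called in each list were not tested against the background of 25.8% higher and 26.8% lower.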

How the data were processed

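RNA was sequenced from HCCLM3 cells in 6 libraries, 3 per group, per the labels. Their protocols name an RNeasy kit and the Hieff NGS MaxUp Dual-mode mRNA library kit. The authors deposited whole-number counts per gene, not normalized. The labels state no aligner, counter or annotation. Mouse builds (GRCm38, mm10) stand in the submitters' processing notes although all 20263 identifiers are human, so no coordinates were taken from the authors' processing. Coordinates and overlaps come from RefSeq (GRCh38.p14) and GENCODE 29. Symbols came from a table of gene names (20148) or GENCODE 29 (76), and 39 rows had none. Total counts ran from 30432509 to 39809131, and 66.8% of the 14374 counts from 1 to 20 were even, so a fragment may have been counted more than once.

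The 13444 genes kept by filterByExpr (minimum count 10) were fitted in R 4.3.3 by edgeR 4.0.16, using TMM factors, robust quasi-likelihood dispersions and no covariate. P-values were Benjamini-Hochberg adjusted over all of them, and every adjusted p is from this test unless another setting is named beside it. Standard errors were derived from each log2 fold change and its F statistic, dividing the former by the root of the latter. The fit was tested on simulated counts. Length is that of 1 GENCODE 29 transcript per gene. The members and the gene lists were chosen with earlier results of these data known. Every member is named except 1, which is not reported here, and of each partner list up to 3 higher and up to 3 lower called genes with the smallest p, and RRN3 with any value. MNAT1 was named outside this rule. Alternatives were DESeq2 1.42.0 (size factors, Wald test), limma-voom (limma 3.58.1), library size only, other filters, a replicate block, GC and length offsets (a spline with 4 degrees of freedom per property) and each library left out. Halved counts were added after seeing the data.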

Additional observations from a re-analysis of the deposited data

How the results depend on the processing

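All 14 called subunits stayed called with DESeq2 size factors, library size only, limma-voom, no filter on low counts and halved counts. The DESeq2 Wald test added POLR1G and POLR3K, and the filter at a CPM of 5 added POLR2I and POLR3K. With the replicate number as a block, 16 subunits were called (6 higher and 10 lower), the added ones being POLR1G (0.65, adjusted p = 0.00519) and POLR3K (-0.50, adjusted p = 0.0111). Libraries of the same number had correlations of 0.16, 0.04 and 0.10, and those of different number from -0.19 to 0.04. The labels do not say that the numbers mark a shared batch, so the reported fit had no block. With GC and length offsets 10 subunits were called higher and 4 Pol II subunits were called, and the cause was not tested. With each library left out, 2 to 5 Pol I subunits were called, 5 of them without DMSO replicate 3. POLR2J2 and POLR3G gave no value at the CPM filter of 5.

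Changes of sign occurred only in genes that the reported fit did not call, and their cause was not tested. With the offsets, POLR2F turned to 0.3443, POLR2J3 to 0.3227, POLR2H to 0.1901, POLR2E to 0.1302, POLR2I to 0.1093, POLR1A to -0.0184, POLR2D to -0.0049 and POLR3G to -0.0473. With library size only, POLR1A was at -0.0526 and POLR2A at -0.0240, and with the CPM filter at -0.0652 and -0.0388. With halved counts POLR1A was at -0.0109. POLR2E was at 0.0120 with DESeq2 size factors and with the Wald test, and at 0.0121 with no filter. With each library left out, POLR1A ran from -0.1755 to 0.1883, POLR2A from -0.1863 to 0.2774, POLR2E from -0.0643 to 0.1057, POLR2H from -0.1757 to 0.1122, POLR2J3 from -0.0501 to 0.0314, POLR3D from -0.0897 to 0.0015 and POLR3G from -0.0125 to 0.2394.

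Over the 33 subunit genes, 441 of 493 recomputed values kept direction and side of the threshold, 9 lost and 16 gained the call, and 27 changed sign. Over 28 partner genes 401 of 418 kept both and 17 lost the call. With 3 libraries a group, a change as small as that of POLR2D (0.14) did not pass the test, although its groups did not overlap.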

Other observations

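Scaled to transcript length, the subunit mRNAs of 1 enzyme were not equally abundant. In the DMSO libraries the level per kilobase was 41.9 CPM per kb for POLR2A and 23.2 for POLR2B, 9.52 for POLR1A and 14.8 for POLR1B, and 9.23 for POLR3A and 6.81 for POLR3B. The highest of the set on this scale were POLR2J at 126 CPM per kb, POLR2L at 124 and POLR2G at 119, while other small subunits were lower (29.1 CPM per kb for POLR2I). With CC-885 the level per kilobase was 149 CPM per kb for POLR2J, 74.4 for POLR2L and 53.2 for POLR2G. Within the TFIIE-like trimer of Pol III the CC-885 libraries held 58.1 CPM per kb of POLR3C, 6.81 of POLR3F, 10.7 of POLR3GL and 1.54 of POLR3G, and the DMSO libraries 21.9, 3.87, 19.1 and 1.43. These levels use 1 annotated transcript per gene and were not tested.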
